A study of Homo sapiens and Mus musculus with 4 samples.

Results

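ATF4 binding was examined at 9 genes of the mTOR nutrient-sensing pathway, namely MTOR, RPTOR, RICTOR, RHEB, TSC1, TSC2, SESN2, DDIT4 and EIF4EBP1. Peaks of the deposited KG1a list that overlapped a gene's span plus 10 kb on each side were assigned to that gene. By this rule 3 of the 873 KG1a peaks belonged to the 9 genes, 1 each at MTOR, TSC2 and EIF4EBP1. The set was chosen by these same peak positions, with a KG1a peak near an end of MTOR and of EIF4EBP1 already known, so the presence of peaks is a description and was not tested.

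The libraries were KG1a ATF4 ChIP, KG1a input, mouse bone marrow ATF4 ChIP and mouse bone marrow input, with 1 library in each group. KG1a is an established human acute myeloid leukaemia line, grown here in medium with 20% fetal bovine serum. The mouse cells were bone marrow cells of the C57BL/6 strain, with no sorted cell type or age in the labels used here. The cell types could not be checked against marker genes, since the lists hold no expression values. In both sources the ChIP library was made with an anti-ATF4 antibody and the input without antibody. No treatment, mutation or ATF4-depleted control is named in the labels. Each list gives positions alone, with no height, p-value or depth, so there is no replicate error and no precision for a single peak. The mouse list holds 83088 peaks. Its peaks were not assigned to the mouse orthologues here, because the gene table used is human, so every gene-level statement below concerns KG1a.

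mTOR is a protein kinase that joins nutrient, energy and growth factor signals to protein synthesis and cell growth. It acts in mTORC1, which contains the adaptor encoded by RPTOR, and in mTORC2, which contains the subunit encoded by RICTOR. The small GTPase encoded by RHEB activates mTORC1 when bound to GTP, and the complex of the TSC1 and TSC2 products turns it off by stimulating GTP hydrolysis. ATF4 is a basic leucine zipper factor whose translation rises when amino acids are short. SESN2, DDIT4 and EIF4EBP1 are widely described as ATF4 targets that restrain mTORC1 signalling or its effect on translation. In blood-forming tissue mTOR signalling is known for setting how actively stem cells divide.

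The MTOR peak lay just upstream of the transcription start. MTOR (gene ID 2475), which encodes the kinase itself, spans chr1:11106535-11262551 in GRCh38, the build of all positions here, and is transcribed from the minus strand. Its peak, chr1:11262693-11263141, was 449 bp wide and ended 142 bp upstream of the RefSeq start, with its centre 366 bp upstream. It overlapped no annotated gene, and MTOR was the one protein-coding gene whose window held it. A peak centre within 1 kb upstream of a RefSeq start was found for 52 of 15843 protein-coding genes with a listed start, or 0.328%. In the distance of the nearest peak centre to a gene end, 0.295% of protein-coding genes were as near as MTOR or nearer. The next KG1a peak lay 366 kb from the gene span.

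The 250 bases upstream of the MTOR start are shown because they include the gene-proximal part of the peak. They are RefSeq sequence (GRCh38.p14) of chr1:11262552-11262801, minus strand, with capitals for the 109 bases inside the peak (chr1:11262693-11262801).
MTOR upstream: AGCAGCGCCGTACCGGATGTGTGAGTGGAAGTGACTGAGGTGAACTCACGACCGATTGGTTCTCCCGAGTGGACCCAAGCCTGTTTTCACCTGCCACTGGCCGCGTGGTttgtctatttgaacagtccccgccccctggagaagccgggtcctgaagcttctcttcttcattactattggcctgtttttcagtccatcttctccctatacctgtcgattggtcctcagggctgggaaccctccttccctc

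The sequence read here covers 109 of the 449 bases of the peak, and the other 340 bases were not searched. Promoter windows of 300 bases, 250 before and 50 after a start, were searched on both strands for TGATGNAA, the core of the composite C/EBP-ATF element that ATF4 binds with C/EBP partners. TGATGCAA, a special case of the same core, and TGACGTCA, the cAMP response element, were searched as well. The MTOR window held no match to any of these sequences. Its best stretch matched 5 of the 7 fixed letters of TGATGNAA, while 37.1% of all windows matched at least 6. This says only that the letters are not in this window.

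The other subunit genes had no listed peak in their windows. For RPTOR, which encodes the mTORC1 adaptor that recruits substrates, the nearest peak edge lay 456 kb from the gene span, inside BAHCC1. Measured from the nearer gene end, 30.2% of protein-coding genes were as near or nearer to a peak centre. From the RefSeq start of RPTOR, the nearest peak centre lay 878 kb away. For RICTOR, which encodes the mTORC2 subunit, the nearest peak lay 4.34 Mb away, 1.13 kb from CCL28, a chemokine gene. Here 88.2% of protein-coding genes had a peak as near or nearer. RPTOR spans 422 kb and RICTOR 136 kb, so both offered a longer target than most genes. Among protein-coding genes over 100 kb long, 7.27% had a peak in the span plus 10 kb, against 3.45% of those 20 to 100 kb long and 1.37% of those up to 20 kb long.

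At TSC2, which encodes the GTPase-activating subunit of the complex that inhibits RHEB, the peak lay upstream, inside a neighbouring gene. The peak, chr16:2040941-2041298, was 358 bp wide. Its centre was 6866 bp upstream of the TSC2 start at chr16:2047985, on the plus strand. The peak lay within NTHL1, a DNA base excision repair gene (chr16:2039820-2047834) that is transcribed away from TSC2 on the minus strand. Its centre was 6.71 kb downstream of the NTHL1 start and 1.3 kb inside the other end of NTHL1. The high-coordinate end of NHERF2, which encodes a scaffold protein, was 2.09 kb from the peak centre. The peak therefore stood in the windows of NTHL1 and NHERF2 as well as TSC2. Of these, TSC2 had its span farthest from the peak, while NHERF2 had its start farthest, at 14.2 kb from the peak centre. TSC2 was the member just inside the 10 kb limit, with 6.69 kb between its span and the peak edge. DDIT4, at 25.1 kb, was the member just outside it.

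The TSC2 promoter held the one TGATGNAA match among the 8 members with a promoter sequence, and no listed peak covered it. Counted by windows, this was 1 of 9 (11.1%), against 598 of 22199 windows of protein-coding genes (2.69%). With 1 match, nothing is read from that difference. EIF4EBP1 had no promoter sequence here and was not searched. The match, TGATGCAA, stood at chr16:2047875-2047882, 110 to 103 bases upstream of the first of the listed RefSeq starts of TSC2, and 6.58 kb from the edge of the nearest peak. It also lay upstream of the NTHL1 start, which is nearer to it than the TSC2 start, so it is not particular to TSC2. NTHL1 and TSC2 are divided by 150 bases, and these are shown because they hold the match (capitals; RefSeq, GRCh38.p14, chr16:2047835-2047984, plus strand).
TSC2 upstream: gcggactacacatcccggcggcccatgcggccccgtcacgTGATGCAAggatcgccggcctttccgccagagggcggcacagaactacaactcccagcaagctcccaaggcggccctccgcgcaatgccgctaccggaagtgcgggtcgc

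The same letters occur in promoters that did lie under a KG1a peak. CHAC1, a glutathione-degrading enzyme gene, HERPUD1, a gene of endoplasmic reticulum protein degradation, and AARS1, the alanyl-tRNA synthetase gene, are shown for comparison with TSC2. They are examples, since S100PBP and TARS1 also held TGATGCAA inside a peak and are not shown. Each line is the strand that reads TGATGCAA, with the match in capitals (RefSeq, GRCh38.p14).
TSC2, chr16:2047865-2047892, plus strand, no peak: ccccgtcacgTGATGCAAggatcgccgg
CHAC1, chr15:40953252-40953279, minus strand, in a peak: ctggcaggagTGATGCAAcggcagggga
HERPUD1, chr16:56931956-56931983, minus strand, in a peak: gggcacgggcTGATGCAAcccgccgcgt
AARS1, chr16:70289676-70289703, plus strand, in a peak: ctaacttggcTGATGCAActgcgagaaa

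All of these share the 8 letters, and their flanks differ. Of the 57 promoter windows of protein-coding genes that a KG1a peak overlapped, 7 held TGATGNAA, or 12.3% (Wilson 95% interval 6.08 to 23.2%), against 598 of 22199 windows in all, or 2.69% (2.49 to 2.92%). TGATGCAA was in 5 of the 57, or 8.77% (3.81 to 18.9%), against 150 of all windows, or 0.676%. TGACGTCA was in 1 of the 57, or 1.75% (0.31 to 9.29%), against 501 of all windows, or 2.26%. The intervals cover counting error alone, and windows of neighbouring genes or starts can overlap. The MTOR window was among the overlapped windows without TGATGNAA. TSC2 was among the windows with the sequence and no overlapping peak. Lack of a peak is the usual case for any window. A peak overlapped 7 of the 598 windows with the sequence and 57 of all 22199.

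**Figure D1:**
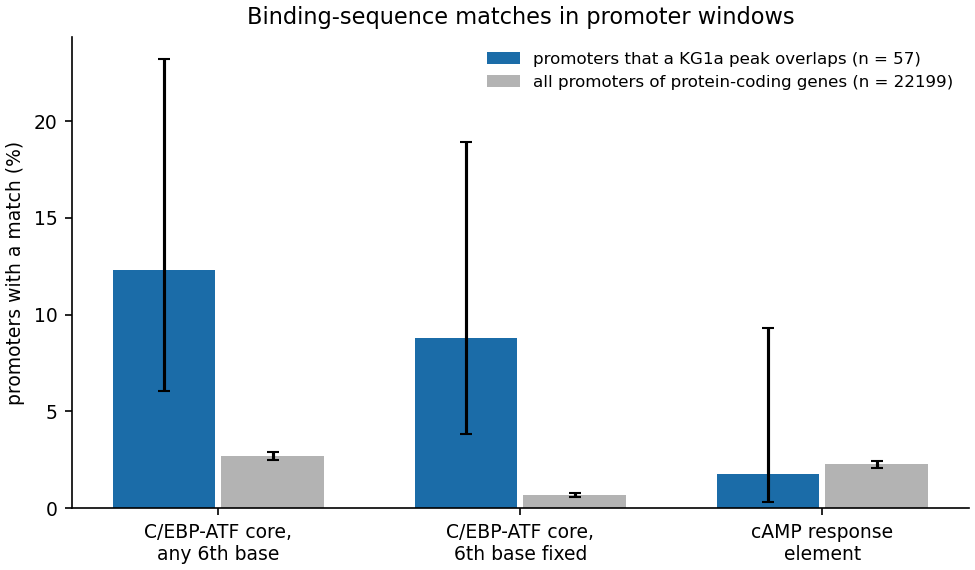
Share of 300-base promoter windows with a match (%, vertical axis) for 3 sequences, in windows that a KG1a ATF4 peak overlaps (blue, n = 57) and in all windows of protein-coding genes (grey, n = 22199). From left to right the sequences are TGATGNAA, TGATGCAA and TGACGTCA, and bars with lines give the share with its Wilson 95% interval. The blue bar stands above the grey one for the first 2 sequences (12.3 against 2.69% and 8.77 against 0.676%), and not for the third. The intervals cover counting error alone, from 1 ChIP library, and the difference was not tested. The blue windows are part of the grey ones, and every TGATGCAA match is also a TGATGNAA match.

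RHEB and TSC1 had no listed peak near them. For RHEB, which encodes the GTPase that activates mTORC1, the nearest peak lay 3.31 Mb away, inside DPP6. For TSC1, which encodes the stabilising partner of the TSC2 product, it lay 516 kb away, inside TTF1, a gene of RNA polymerase I termination. Of protein-coding genes, 83.2% had a peak centre as near as RHEB or nearer, and 33.0% as near as TSC1 or nearer. Neither promoter window held TGATGNAA, TGATGCAA or TGACGTCA.

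The upstream inhibitors SESN2 and DDIT4 had no listed peak in their windows. SESN2 (chr1:28259518-28282491) encodes a leucine-binding protein that holds mTORC1 inactive when leucine is short. Its nearest peak lay 3.47 Mb away, inside CLIC4, and 84.1% of protein-coding genes had a peak centre as near or nearer. DDIT4 (chr10:72273924-72276036) encodes REDD1, a stress-induced protein that acts through the TSC complex to inhibit mTORC1. Its nearest peak, chr10:72248514-72248867, was 354 bp wide and its centre was 25.2 kb upstream of the start, between genes, with ANAPC16 the nearest protein-coding gene at 12.7 kb. As near or nearer to a peak were 3.37% of protein-coding genes. At 2.11 kb, DDIT4 was the shortest of the 9 genes, and the one in the length class up to 20 kb. Neither promoter window held any of the searched sequences, with best stretches of 6 of 7 letters for SESN2 and 5 of 7 for DDIT4.

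EIF4EBP1, which encodes a translation repressor that mTORC1 inactivates by phosphorylation, had its peak inside the gene. EIF4EBP1 (gene ID 1978) spans chr8:38030534-38060365, and the peak, chr8:38031356-38031726, ran from 822 to 1192 bp inside the low-coordinate end. It was 371 bp wide, with its centre 1007 bp from that end, so the gene lies just beyond a limit of 1 kb on the peak centre. That limit was met by 102 of the 19974 protein-coding genes on chromosomes with a peak, or 0.511%. EIF4EBP1 was the one protein-coding gene whose window held the peak. Another peak lay 68.3 kb from the gene, and 3 peaks in all stood within 1 Mb of its span, the largest number among the 9 genes. The strand of EIF4EBP1 was not given, and no promoter sequence was at hand for it. Neither its promoter nor its peak was therefore searched for TGATGNAA, TGATGCAA or TGACGTCA.

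**Figure D2:**
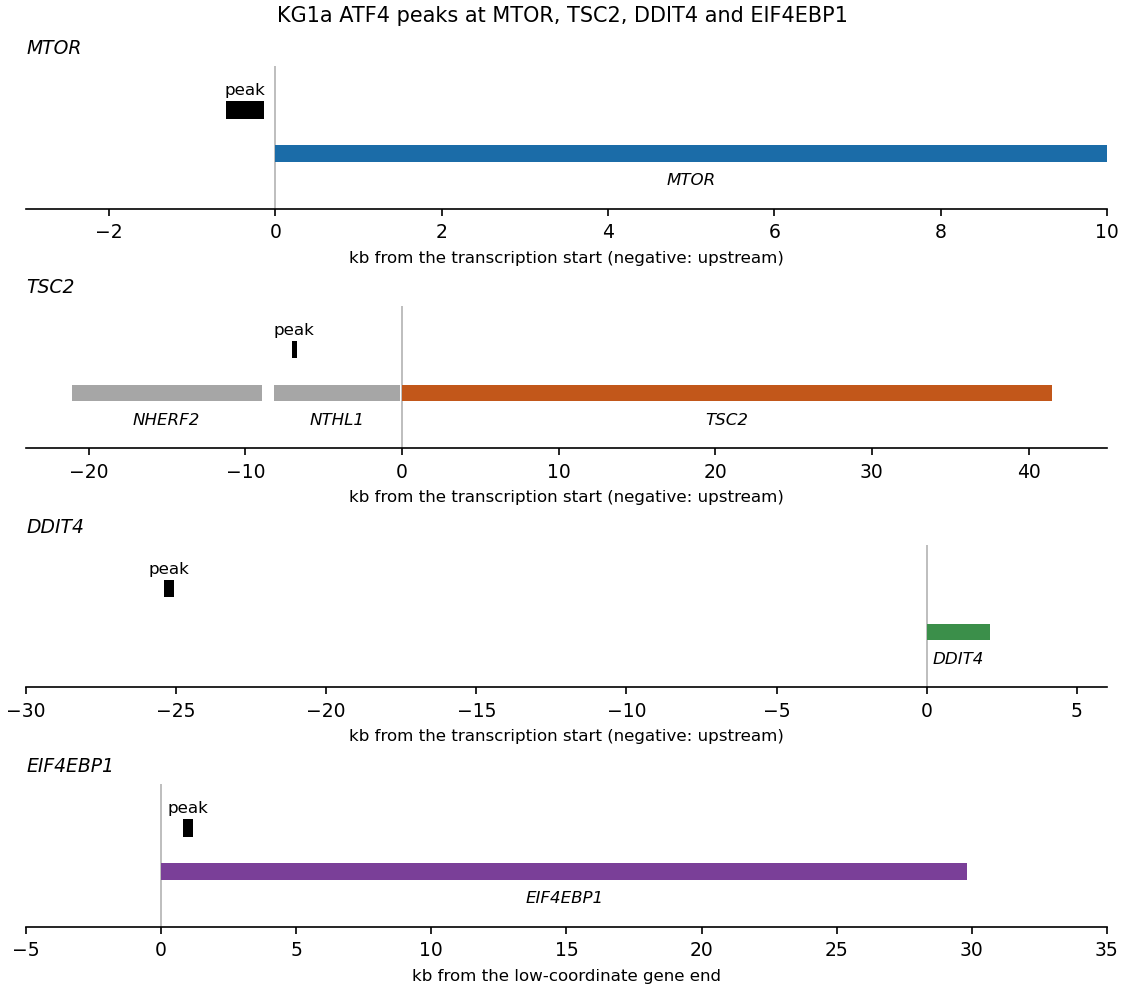
Maps of the KG1a peak (black bar) nearest to MTOR, TSC2, DDIT4 and EIF4EBP1, with the gene as a coloured bar and neighbouring genes at TSC2 in grey. The horizontal axis is the distance in kb from the transcription start, negative upstream, or from the low-coordinate end for EIF4EBP1; the MTOR bar continues beyond the right edge. The MTOR peak is centred 366 bp upstream, the TSC2 peak 6866 bp upstream within NTHL1, the DDIT4 peak 25.2 kb upstream and the EIF4EBP1 peak 1007 bp inside the gene.

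Across the 9 genes, 3 had a peak in the window and 6 had not. Over all 20037 protein-coding genes the share was 3.15%. The rule itself used these peaks, so nothing is read from that difference. The gene span alone held a peak at 1 member (EIF4EBP1) and at 2.26% of all protein-coding genes. With 1 kb added on each side the counts were 2 members and 2.47%, with 5 kb 2 members and 2.77%, and with 50 kb 4 members and 6.25%. In order of distance from the nearest peak centre to the nearer gene end, the genes ran MTOR (0.366 kb), EIF4EBP1 (1.01 kb), TSC2 (6.87 kb), DDIT4 (25.2 kb), RPTOR (456 kb), TSC1 (516 kb), RHEB (3310 kb), SESN2 (3470 kb) and RICTOR (4340 kb). The median of the members was 456 kb and that of all protein-coding genes 961 kb (quartiles 356 kb and 2.29 Mb). MTOR, EIF4EBP1, TSC2 and DDIT4 were thus nearer to a peak than the lower quartile of all genes, RPTOR and TSC1 lay between that quartile and the median, and the other 3 lay beyond 3 Mb. The rule used these peaks, so nothing is read from these distances or medians either. The 9 genes lie on 8 chromosomes, and the chromosome of RICTOR held 25 peaks in all, the fewest among these, where that of MTOR and SESN2 held 75.

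**Figure D3:**
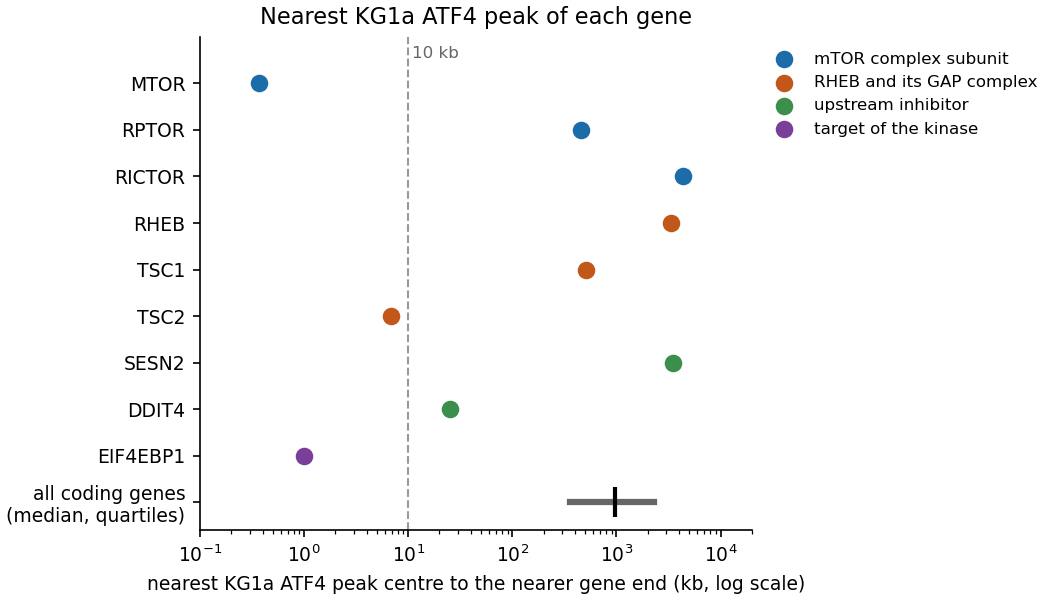
Distance in kb, on a log axis, from the centre of the nearest KG1a ATF4 peak to the nearer end of each of the 9 genes, coloured by role. The bottom row gives the median (tick, 961 kb) and quartiles (bar) of all protein-coding genes, and the dashed line marks 10 kb. MTOR, EIF4EBP1 and TSC2 lie left of the line, and RHEB, SESN2 and RICTOR lie right of the bar.

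The peaks at the members were of middling to upper width and came from different parts of the list. The MTOR peak, at 449 bp, was wider than 91.3% of the 873 KG1a peaks, whose median was 341 bp and whose range was 310 to 1183 bp. The EIF4EBP1 peak (371 bp) was wider than 74.6% and the TSC2 peak (358 bp) wider than 66.7%. In the deposited order EIF4EBP1 stood at place 73, MTOR at place 511 and TSC2 at place 560. The files do not state what the order means.

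**Figure D4:**
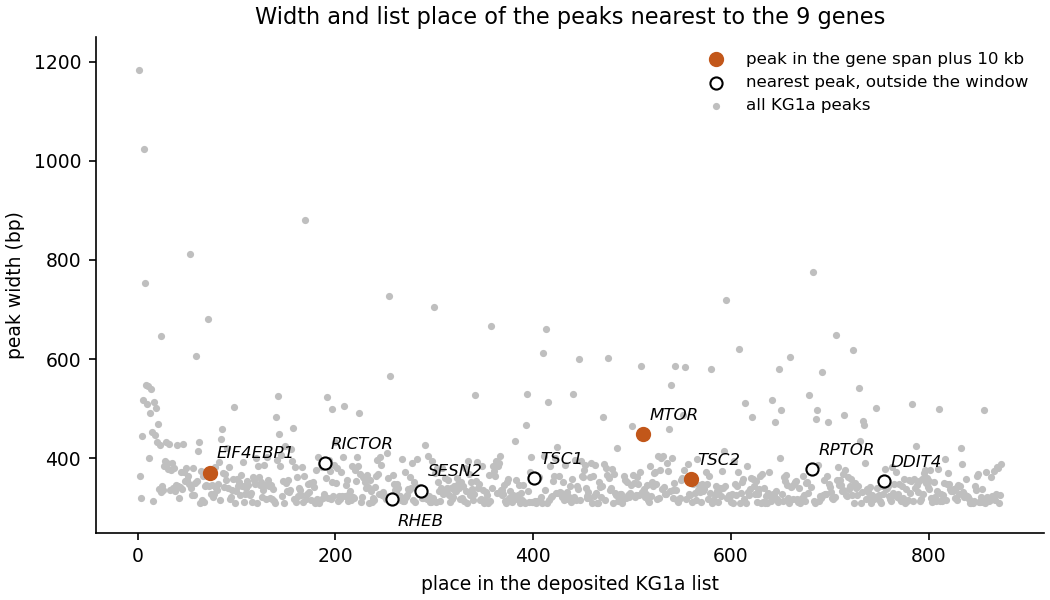
Width in bp (vertical axis) against place in the deposited list (horizontal axis) for all 873 KG1a peaks (grey), with the peaks in the windows of EIF4EBP1, MTOR and TSC2 filled and the nearest peaks of the other 6 genes open. MTOR's peak is the widest of these 9 at 449 bp, and EIF4EBP1's is the earliest in the list at place 73.

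A wider list of 60 further pathway genes held 2 with a peak in the same window. This share of 3.33% lay close to the 3.15% of all protein-coding genes, and the median distance to a peak was 928 kb against 961 kb. One was RRAGC, which encodes a Rag GTPase that brings mTORC1 to the lysosome. Its peak, chr1:38846179-38846528, lay inside the gene, 13.4 kb downstream of the start. The other was SESN3, a paralogue of SESN2, with a peak inside the gene at chr11:95221550-95221860, 10.8 kb downstream of the start. By group, 1 of 10 Rag and Ragulator genes and 1 of 5 nutrient sensor genes had a peak. In the remaining groups the counts were 0 of 9 further mTOR complex genes, 0 of 12 genes of GATOR1, GATOR2 and KICSTOR, 0 of 3 folliculin genes, 0 of 9 genes of the TSC axis and 0 of 12 targets. With 60 genes in all, each group is too small to show a deficit. TGATGNAA was found at 1 of the 49 pathway genes with a promoter sequence, PRR5L, which encodes an mTORC2-binding protein. The match lay 110 to 103 bases upstream of its start and outside any listed peak. By windows this was 1 of 72, or 1.39%, against 2.69% of all windows of protein-coding genes.

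Genes whose nearest peak was placed most like those of the members were taken by the difference in signed distance, each from the single KG1a list. For MTOR, at 366 bp upstream of the start, these were RPAP2 (361 bp upstream), EIF2S3, which encodes the gamma subunit of eIF2 (354 bp), and CHAC1 (342 bp), out of 15804 genes compared. For TSC2, at 6866 bp upstream, they were ARFGAP2 (6864 bp), SBNO2 (6814 bp) and PFKFB4 (7015 bp). For EIF4EBP1, with 1007 bp inside the nearer gene end, they were LPXN (993 bp), GRAP2 (1016 bp) and PRR33 (1020 bp), out of 19965 genes.

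The G and C content of the promoter windows lay on both sides of the median of all windows. Of the 9 genes, 8 had a RefSeq promoter window here, all but EIF4EBP1, with 9 windows because TSC2 had a pair of starts. G and C made up 48.0% of the RPTOR window and 74.7% of the downstream TSC2 window, the lowest and highest, against a median of 62.3% over all windows (quartiles 53.0 and 70.0%). The MTOR window, at 59.3%, lay near that median, and its 109 bases inside the peak had 59.6%.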

How the data were processed

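The authors deposited 1 peak list for KG1a and 1 for mouse bone marrow, each from 1 ChIP library against 1 input library per the labels. The lists hold 3 columns (other values: chromosome, start and end in bases). CASAVA 1.4, Bowtie2, MACS2 and deepTools and the builds GRCh38 and GRCm38 are named in the submitters' processing notes, with no role or setting; no source used here states the calling threshold. Depth is unknown.

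Starts were counted from 0 in the files and are printed from 1. KG1a peaks were placed against RefSeq genes and promoter windows of GRCh38.p14, which shares chromosome coordinates with GRCh38, over 20037 protein-coding genes. Starts and strands came from the promoter table. Peak centres are interval midpoints. Members and the 60-gene list, 1 of which matched by an older symbol, were chosen with earlier results of these data known. The rule for names took all members, listed pathway genes with a peak, genes sharing a member's peak or nearest to it, and the 3 most similar genes by peak distance. Outside this rule, HERPUD1, AARS1, S100PBP, TARS1 and PRR5L were named for a promoter match, and STK11 for the 50 kb window. No test across libraries was possible. Alternatives were window sizes, stricter lists, peak edges, other sequences and, chosen after seeing the data, RefSeq starts. Mouse genes were not analysed here. Python 3.11.15, pandas 2.3.3, SciPy 1.17.1 and matplotlib 3.10.9 were used. The code of the window search was checked with simulated peaks planted within 10 kb of gene ends, where 200 of 200 genes were found. No peak was planted outside the windows on purpose, so false assignment was not checked.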

Additional observations from a re-analysis of the deposited data

How the results depend on the processing

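No paired analysis was possible because each source has 1 ChIP and 1 input library. The count of members with a KG1a peak was 3 with 10 kb added to the span and also by peak centre. It was 2 with 1 or 5 kb or in the widest 25% of peaks (MTOR and EIF4EBP1). The EIF4EBP1 peak, at 371 bp, sat exactly at the width where the widest 25% starts. With 50 kb the count was 4 (DDIT4 added), where 6.25% of all protein-coding genes had a peak. In the gene span alone or in the first 25% of the deposited order it was 1 (EIF4EBP1). The pathway count of 2 became 4 of 60 with 50 kb, where PRR5L and STK11 were added, beside the same 6.25% of all protein-coding genes. It was 0 in the widest 25% of peaks and 1 in the first 25% of the order (RRAGC). The share of all genes was not computed for the widest 25% or the first 25%, so those counts have no background here. Measured from the peak edge, the MTOR distance was 0.142 kb. In the widest 25% of peaks the nearest one lay 27400 kb from RHEB, 2910 kb from TSC1, 4510 kb from DDIT4 and 25100 kb from TSC2. From the RefSeq start, RPTOR lay 878 kb from its nearest peak. The promoters of 0 members held TGACGTCA, where 1 held TGATGNAA. The shares over all promoter windows of protein-coding genes were 2.26% and 2.69%, and nothing is read from 0 against 1. The window sizes and stricter lists change how many bases or peaks were searched. The peak centre, peak edge and RefSeq start change the point measured on the same peaks, and TGACGTCA the letters sought in the same windows. Mouse counts were not run. Depth is unknown, so a gene with no listed peak may have had binding below the authors' threshold, and no peak has a replicate.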
